A study of Sus scrofa with 6 samples.

Results

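The AP-1 transcription factor subunits FOS, FOSB, FOSL1, FOSL2, JUN, JUNB, JUND, ATF3, MAFF and BATF3 were followed from porcine embryonic fibroblasts (PEFs) to the induced pluripotent stem cells (piPSCs) made from them. They were chosen by name, and 7 of the 10 were found under their own symbol among the 18007 genes of the deposited table. JUN was found by its gene identifier, and JUND by a row that lies inside its annotated locus. JUNB has no row of its own and is not analysed here, since its locus is overlapped only by rows named PRDX2 and HOOK2. The PRDX2 row carries a jun-B protein annotation but, unlike the row of JUND, reaches outside the locus, so its values were not taken for JUNB. The 9 members with a row were all among the 12428 genes that were tested.

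RNA was sequenced from PEF5, PEF7 and PEF8, fibroblasts from the ear tips of embryonic day 90 fetuses of 1 Large White boar (Longwhite in the labels) and 1 Meishan sow, before transduction. It was also sequenced from piPSC5, piPSC7 and piPSC8, each derived from its same-numbered PEF line with a lentiviral, doxycycline-inducible cassette of Oct4, Sox2, Klf4 and c-Myc together with the reverse tetracycline transactivator. The infected cells were cultured in LF2i medium until colonies formed. The piPSC colonies were picked and grown on mouse embryonic fibroblast feeders. The part of the medium in the results was not tested. Each line gave 1 library, so n = 3 in each group and the p-values measure the spread between 3 lines of related animals.

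AP-1 is a dimer of basic leucine zipper (bZIP) proteins. JUN proteins pair with each other or with FOS proteins, while FOS proteins need a JUN partner, and ATF3, the BATF proteins and the small MAF proteins join the same network through their own zippers. The dimers bind the TPA response element (TRE) TGANTCA or the cAMP response element (CRE) TGACGTCA. FOS, FOSB, JUN and ATF3 are immediate early genes, switched on briefly by growth factors and stress through the MAP kinase cascade, whereas FOSL1 and FOSL2 follow later and last longer and JUND varies little. In mouse and human cells AP-1 is known for keeping somatic enhancers open and for opposing reprogramming.

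The libraries held 11010629 to 17836510 fragments, as recovered from the steps of the FPKM values (fragments per kilobase of gene and per 1000000 fragments). All 10 fibroblast markers fell in the piPSCs, their summed FPKM going from 4490 to 6460 in PEFs to 131 to 223 in piPSCs. Of the pluripotency markers, NANOG, SALL4, ESRRB, ZFP42, EPCAM and CDH1 stayed below 1 FPKM in every library, while SOX2 and LIN28B were higher in every piPSC library than in any PEF library. SOX2 had 0, 1 and 2 fragments in PEF5, PEF7 and PEF8 and 288, 188 and 9 in the piPSC lines, and LIN28B had 1, 1 and 3 and then 204, 18 and 529. Neither was called (limma adjusted p = 0.0626 and 0.0667). POU5F1 is not analysed here. The piPSCs are named here as labelled. DDX3Y, a gene of the Y chromosome, had 3439 fragments in PEF8 and 4207 in piPSC8 and 0 in the other 4 libraries, so line 8 stands apart from lines 5 and 7, although all lines are described as male. Leaving out line 8 changed the call of 0 of the 9 members. In such bulk RNA, fewer cells of a type and less RNA per cell cannot be told apart, and any fragments of mouse feeder cells cannot be separated from porcine ones in values per gene.

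The promoters of JUN, JUND, FOS and FOSL1 are shown because they hold the letters that AP-1 and its CREB and ATF relatives bind. The 250 bases before the annotated start of the 9 members were read from Sscrofa11.1 (RefSeq annotation, or the deposited row where it starts further upstream). Capitals mark a JUN1-type site TGACATCA in JUN, which is a variant of the TRE, a CRE and a CRE half-site TGACGT in JUND, and CRE half-sites in FOS and FOSL1, read on both strands. The whole CRE of JUND contains half-sites on both strands.
JUN, chr6:153685432-153685681, plus strand: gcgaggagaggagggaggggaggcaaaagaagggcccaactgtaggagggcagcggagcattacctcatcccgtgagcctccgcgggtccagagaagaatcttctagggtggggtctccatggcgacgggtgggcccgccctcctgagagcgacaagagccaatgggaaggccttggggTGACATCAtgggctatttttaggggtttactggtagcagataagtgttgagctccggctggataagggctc
JUND, chr2:59530741-59530990, plus strand: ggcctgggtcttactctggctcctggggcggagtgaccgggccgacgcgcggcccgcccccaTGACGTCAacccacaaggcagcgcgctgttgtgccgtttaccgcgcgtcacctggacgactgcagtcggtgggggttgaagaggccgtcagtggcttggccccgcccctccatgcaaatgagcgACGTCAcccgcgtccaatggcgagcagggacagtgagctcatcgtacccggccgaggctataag
FOS, chr7:98449258-98449507, plus strand: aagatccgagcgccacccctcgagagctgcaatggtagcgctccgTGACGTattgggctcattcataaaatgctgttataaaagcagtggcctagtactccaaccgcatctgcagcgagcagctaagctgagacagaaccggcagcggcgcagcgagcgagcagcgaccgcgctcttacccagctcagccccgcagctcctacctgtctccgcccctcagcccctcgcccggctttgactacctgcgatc
FOSL1, chr2:6429903-6430152, plus strand: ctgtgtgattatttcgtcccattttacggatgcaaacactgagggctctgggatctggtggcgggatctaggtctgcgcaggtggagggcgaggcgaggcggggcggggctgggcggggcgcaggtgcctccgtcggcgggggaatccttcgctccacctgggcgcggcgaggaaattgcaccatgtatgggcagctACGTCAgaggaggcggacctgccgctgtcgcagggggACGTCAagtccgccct

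The JUN1-type site began 71 bases before the annotated start of JUN, and another one lay 108 bases before that of ATF3. These 2 of 9 members compare with 1.14% of 19569 promoter windows of the same length. The site is named after JUN, so its match in JUN could be foreseen and the share is not support. The ATF3 start is that of RefSeq, at 130829678 on the minus strand, whereas its row begins at 130785599 on that strand. The CRE was found in JUND alone, 188 bases before its start, against 1.7% of all windows. The half-site, whose letters were chosen after the windows had been read, was present in 3 of 9 members against 6.82% of all windows. It began 205 bases before the start of FOS, and 53 and 16 bases before that of FOSL1. A TRE was found in 0 of 9 members and in 5.27% of all windows. The CArG box, the site of serum response factor, was likewise in 0 of 9 against 1.31%. Sites outside these windows were not searched, so the counts do not show that a member lacks a TRE or a CArG box. The FOSB start is that of RefSeq, at 51836780 on the plus strand, whereas its row begins at 51838277. A match in these letters is a description of the window and not a measured binding site.

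Across the 9 members, 4 fell and 1 rose in piPSCs, a call meaning here a limma adjusted p under 0.05 together with a change of 2-fold or more. FOSL1, FOSL2, JUND and MAFF were lower, and BATF3 was higher. FOS, FOSB, JUN and ATF3 were not called. All 9 had a mean above the minimum of 0.5 FPKM in each group. Over all tested genes, 16.7% were called lower and 20.2% higher. When each library was rescaled to the median ratio over genes, the split over all genes turned from 2505 higher and 2070 lower to 1879 higher and 2511 lower, and with equal sums it was 1986 higher and 2815 lower, while the members kept 4 lower and 1 higher under both. The same 5 members were the ones whose PEF and piPSC values did not overlap, which held for 64.1% of all tested genes. The median log2 fold change of the 9 members was -0.11, beside 0.20 over all tested genes.

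**Figure D1:**
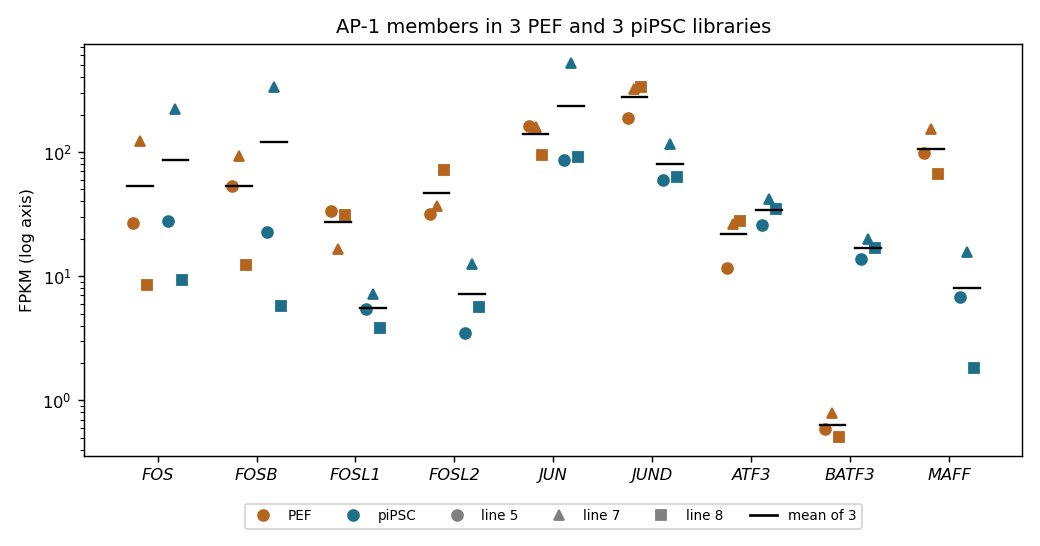
FPKM of the 9 AP-1 members on a log axis in each library, with PEFs in brown, piPSCs in blue, the line given by the shape of the point and a bar at the mean of 3. FOSL1, FOSL2, JUND, MAFF and BATF3 separate by group, whereas FOS and FOSB spread over more than 7-fold within each group.

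FOSL1 (ENSSSCG00000012967, chromosome 2 from 6430153 to 6439029) encodes FRA1, a FOS-related protein without the transactivation domains of FOS that is known for its link to mesenchymal and invasive cells. Its level was 33.6, 16.5 and 31.2 FPKM in PEF5, PEF7 and PEF8, against 5.41, 7.25 and 3.83 FPKM in piPSC5, piPSC7 and piPSC8. Every PEF value was above every piPSC value. The means were 27.1 ± 9.25 FPKM (SD, n = 3) in PEFs and 5.5 ± 1.71 in piPSCs, a 4.93-fold difference, and limma gave a log2 change of -2.09 with a standard error of 0.33 and an adjusted p of 0.00288. The row also covers CCDC85B, a gene annotated by RefSeq over 1042 of its bases, and fragments of the pair cannot be told apart here.

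FOSL2 (ENSSSCG00000032527, chromosome 3 from 110819947 to 110842850), the gene of FRA2, fell as well. It stood at 31.6, 36.6 and 71.4 FPKM in PEF5, PEF7 and PEF8, and at 3.48, 12.5 and 5.66 FPKM in piPSC5, piPSC7 and piPSC8. PEF8 was the highest fibroblast library and piPSC7 the highest piPSC library, with no overlap between the groups. The means were 46.5 ± 21.7 and 7.21 ± 4.70 FPKM, and the log2 fold change was -2.59 with a standard error of 0.47 (limma adjusted p = 0.00492).

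FOS and FOSB, the founding members that carry strong transactivation domains, were not called. FOS (ENSSSCG00000002383, chromosome 7 from 98449508 to 98453576) was at 27.0, 123 and 8.43 FPKM in PEF5, PEF7 and PEF8 and at 27.9, 220 and 9.32 FPKM in piPSC5, piPSC7 and piPSC8. Each piPSC library thus stood within 2-fold of its own PEF library, while the lines of one group differed by 14.6-fold in PEFs and 23.6-fold in piPSCs. The log2 fold change was 0.34, with a 95% interval of -2.81 to 3.49 and a limma adjusted p of 0.843. A change of several fold in either direction lies inside this interval, which is of the unpaired fit and includes the spread between lines. With the line as a replicate block the log2 change was again 0.34 and the limma adjusted p was 0.249. The row overlaps the RefSeq gene LOC110261632 by 150 bases.

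FOSB (ENSSSCG00000031616, chromosome 6 from 51838277 to 51842399) was at 53.1, 93.3 and 12.2 FPKM in the 3 PEF lines and at 22.6, 334 and 5.76 FPKM in the 3 piPSC lines. Line 7 was again the highest and line 8 the lowest in both groups. The log2 fold change was -0.11 with a 95% interval of -3.58 to 3.36 (limma adjusted p = 0.953). The row of FOSB is 978 bases long, shorter than those of its relatives, so its level per length rests on 62 to 3888 fragments.

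Summed over the 4 FOS family members, the level was 145, 270 and 123 FPKM in PEF5, PEF7 and PEF8 and 59.4, 574 and 24.6 FPKM in the piPSC lines of the same order. The composition of that sum shifted in each line. FOSL1 and FOSL2 together made up 44.8%, 19.7% and 83.2% in PEF5, PEF7 and PEF8, and 15%, 3.44% and 38.6% in piPSC5, piPSC7 and piPSC8. Their share was lower in the piPSC library of all 3 lines, from a mean of 49.2% ± 32.0 (SD, n = 3) to 19.0% ± 17.9, although the ranges of the groups overlap. In fragments the means were 69.5% and 35.0%. The PEF mean per length was 32.2% without PEF8, and the piPSC mean 9.22% without piPSC8. FOS alone held 37.9% to 47.0% of the sum in the 3 piPSC lines, and 6.84% to 45.7% in PEFs. Counted in fragments, without scaling by length, these ranges were 30.7% to 58.1% and 3.79% to 46.6%.

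**Figure D2:**
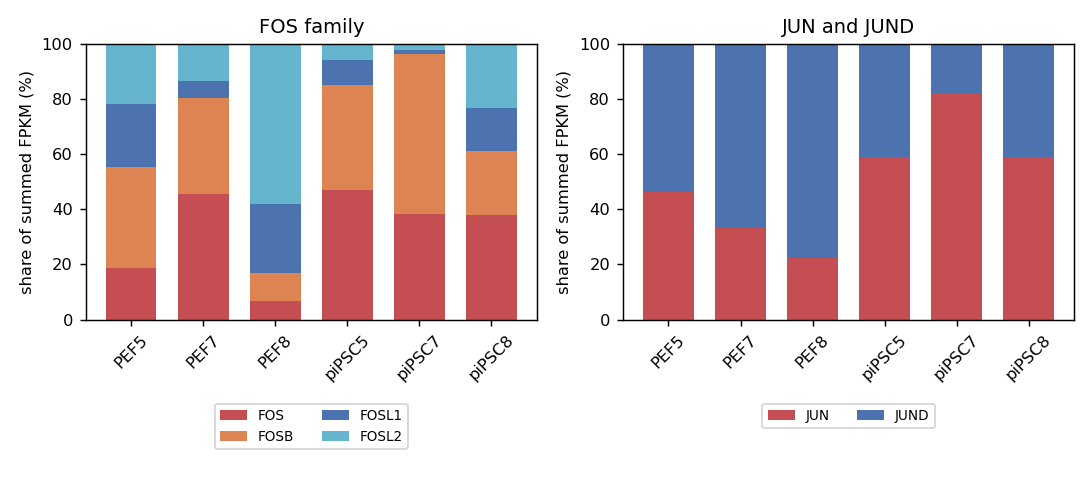
Share of each member in the summed FPKM of its family, in percent, in each of the 6 libraries. FOSL1 and FOSL2 (blues) hold 19.7% to 83.2% of the FOS family in PEFs and 3.44% to 38.6% in piPSCs, and JUND holds 53.3% to 77.7% of the JUN and JUND sum in PEFs and 18.1% to 41.0% in piPSCs.

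JUND, the JUN protein that is expressed in most resting cells and restrains proliferation in fibroblasts, was the most abundant member in every PEF library. Its row (ENSSSCG00000031657, chromosome 2 from 59531154 to 59532196) carries no symbol in the table and a pseudogene biotype, but lies inside the JUND gene of RefSeq and is annotated as jun-D. It was at 186, 321 and 331 FPKM in PEF5, PEF7 and PEF8 and at 59.9, 116 and 62.9 FPKM in piPSC5, piPSC7 and piPSC8. The groups did not overlap, the means being 279 ± 81.2 and 79.5 ± 31.4 FPKM. The log2 fold change was -1.82 with a standard error of 0.34 (limma adjusted p = 0.00521).

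JUN (ENSSSCG00000031912, chromosome 6 from 153685682 to 153687639), the strongest transactivator of its family and the partner shared by the FOS proteins, was not called. It was at 163, 160 and 95.3 FPKM in PEF5, PEF7 and PEF8 and at 86.3, 523 and 90.6 FPKM in piPSC5, piPSC7 and piPSC8. The value of piPSC7 was the highest of the 6, while piPSC5 and piPSC8 lay just below the lowest PEF library. The log2 fold change was 0.24 with a 95% interval of -1.43 to 1.92 (limma adjusted p = 0.785), and it was -0.03 and -0.08 under the 2 rescalings. Per length, JUND stood above JUN in every PEF library and JUN above JUND in every piPSC library, but in fragments JUN was already ahead in PEF5, with 5145 against 3447. The ratio of JUN to JUND was 0.877, 0.498 and 0.288 in PEF5, PEF7 and PEF8 and 1.44, 4.52 and 1.44 in piPSC5, piPSC7 and piPSC8, and JUN was the most abundant of the 9 members in each piPSC library. JUND made up 65.9% ± 12.2 of the JUN and JUND sum in PEFs and 33.4% ± 13.2 in piPSCs (SD, n = 3). Since the rows of both genes have a pseudogene biotype in the table, and JUNB has none, the sum is not that of the whole JUN family.

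MAFF, a small MAF protein that has a zipper but no transactivation domain, had the largest estimated fall of the 4 members. MAFF (ENSSSCG00000030165, chromosome 5 from 9683657 to 9695934) was at 97.5, 152 and 66.0 FPKM in PEF5, PEF7 and PEF8 and at 6.74, 15.6 and 1.81 FPKM in piPSC5, piPSC7 and piPSC8. The lowest PEF value was above the highest piPSC value. The means were 105 ± 43.4 and 8.04 ± 6.98 FPKM, a 13.1-fold difference, with a log2 change of -3.82 and a standard error of 0.65 (limma adjusted p = 0.00377). Without line 5, at 2 lines against 2, the adjusted p of MAFF was 0.0508 and the call was lost.

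Of the other small MAF proteins, MAFG fell and MAFK was not called. MAFG was at 11.5, 12.3 and 8.95 FPKM in PEFs and 4.32, 4.40 and 5.58 FPKM in piPSCs, and fell by 1.04 on the log2 scale (limma adjusted p = 0.00548), a call lost without PEF7, piPSC5, line 5 or line 7. MAFK was at 17.6, 30.5 and 30.1 FPKM in PEFs and 34.7, 29.6 and 41.5 FPKM in piPSCs with a log2 change of 0.45 (limma adjusted p = 0.174). MAFG and MAFK were singled out after their values were seen.

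BATF3 (ENSSSCG00000026587, chromosome 9 from 130699196 to 130712358) was the member that rose. It encodes a bZIP protein that pairs with JUN proteins and is best known from dendritic cell development. It was at 0.587, 0.793 and 0.507 FPKM in PEF5, PEF7 and PEF8, which are 15, 19 and 11 fragments, and at 13.8, 20.1 and 17.0 FPKM in piPSC5, piPSC7 and piPSC8, which are 298, 342 and 268 fragments. The 3 lines agree within 1.57-fold in PEFs and 1.45-fold in piPSCs, the tightest spread of the 9 members in either group. The means were 0.629 ± 0.148 and 17.0 ± 3.13 FPKM, a 27.0-fold difference, with a log2 change of 3.45 and a standard error of 0.21 on the log2(FPKM + 1) scale (limma adjusted p = 0.000179).

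ATF3, a stress-induced repressor of the same network, is the neighbour of BATF3, 59.9 kb away on the opposite strand of chromosome 9 (ENSSSCG00000015595, from 130772262 to 130785599). ATF3 was at 11.6, 26.5 and 27.6 FPKM in PEF5, PEF7 and PEF8 and at 25.9, 42.2 and 34.8 FPKM in piPSC5, piPSC7 and piPSC8. Every piPSC library was above its own PEF library, but piPSC5 lay below PEF7 and PEF8. The log2 fold change was 0.69 with a 95% interval of -0.17 to 1.55 (limma adjusted p = 0.146). With the line as a replicate block the adjusted p was 0.0481, below the threshold, but the change stayed under 2-fold. The ratio of BATF3 to ATF3 was 0.0184 to 0.0505 in PEFs and 0.475 to 0.533 in piPSCs.

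Line by line, the rise of BATF3 and the falls of FOSL1, FOSL2, JUND and MAFF reached 2-fold in each of the 3 lines. A rise of this kind was seen for 12.8% of all tested genes and a fall for 11.9%. The fall was smallest in line 7 for all 4 members that fell. FOSL1 was 5.39-fold lower in line 5, 2.12-fold in line 7 and 6.67-fold in line 8, on FPKM + 1. For FOSL2 the values were 7.27-fold, 2.79-fold and 10.9-fold. MAFF was 12.7-fold, 9.21-fold and 23.9-fold lower, and JUND 3.07-fold, 2.75-fold and 5.20-fold lower. Among all genes called lower, the fall was smallest in line 7 for 41.6%. With 1 library for each line and cell type, these ratios have no replicate check.

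**Figure D3:**
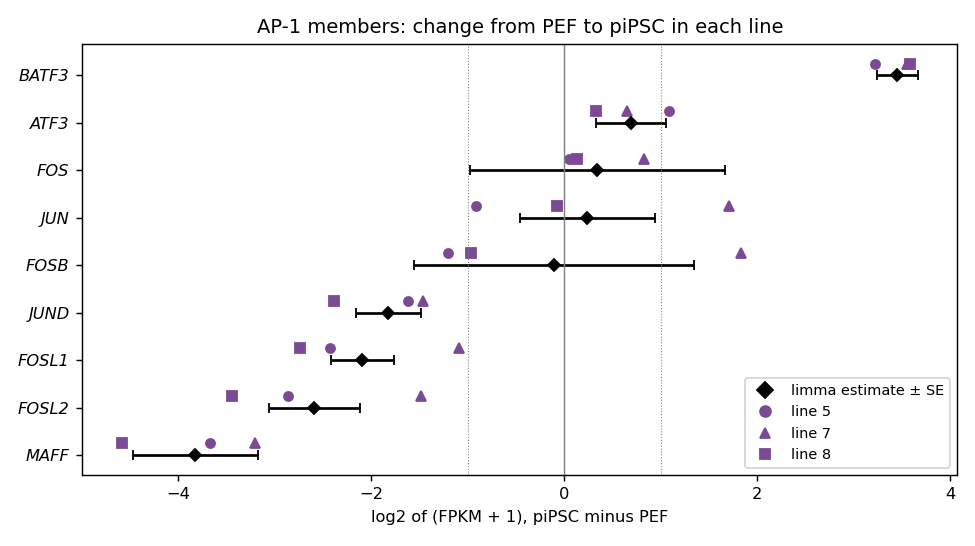
Change of each AP-1 member from PEF to piPSC on the log2(FPKM + 1) scale, with the limma estimate and its standard error as a diamond with bars, and the 3 single lines as purple points. FOSL1, FOSL2, JUND and MAFF lie left of -1 and BATF3 right of 1 in all 3 lines, and FOSB and JUN lie on both sides of 0.

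No share over all tested genes was computed for it, but piPSC7 was the highest piPSC library for all 9 members. It was at least 2-fold above both other piPSC lines, on FPKM + 1, for 5 of 9 members, namely the immediate early FOS, FOSB and JUN as well as FOSL2 and MAFF, and for 3.64% of all tested genes. This comparison was chosen after the values were seen. FOS was also at least 2-fold above both other lines among PEFs, a pattern held by 17 tested genes or 0.137%. The nearest profiles to FOS over the 6 libraries were those of EGR1, at a root mean square distance of 0.57 on the centred log2 scale, of FOSB at 0.58 and of DLX5 at 0.73. EGR1, an immediate early zinc finger factor, was at 95.8, 186 and 32.2 FPKM in PEF5, PEF7 and PEF8 and at 86.3, 295 and 17.6 FPKM in piPSC5, piPSC7 and piPSC8. Among the 24 other immediate early and serum response genes tested, 7 were at least 2-fold higher in piPSC7 than in both other piPSC lines. The skeletal muscle marker DES was also highest in piPSC7, at 14.2 FPKM beside 0.165 in piPSC5 and 2.51 in piPSC8, whereas MYOD1 and MYF5 were at 0 in all piPSCs, and the keratinocyte markers KRT14, at 3.04 FPKM beside 0.164 and 0.225, and KRT5, at 0.806 beside 0.0252 and 0, were highest in piPSC7 too. TP63 was at 0 in all piPSCs, and the part of such cells in the result was not tested. The 4 keratinocyte markers summed to 3.04 to 3.35 FPKM in PEFs and 4.74 to 9.09 in piPSCs. The summed level of the 3 muscle markers in the table was 0.0404 to 0.710 FPKM in PEFs and 0.165 to 14.2 in piPSCs.

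**Figure D4:**
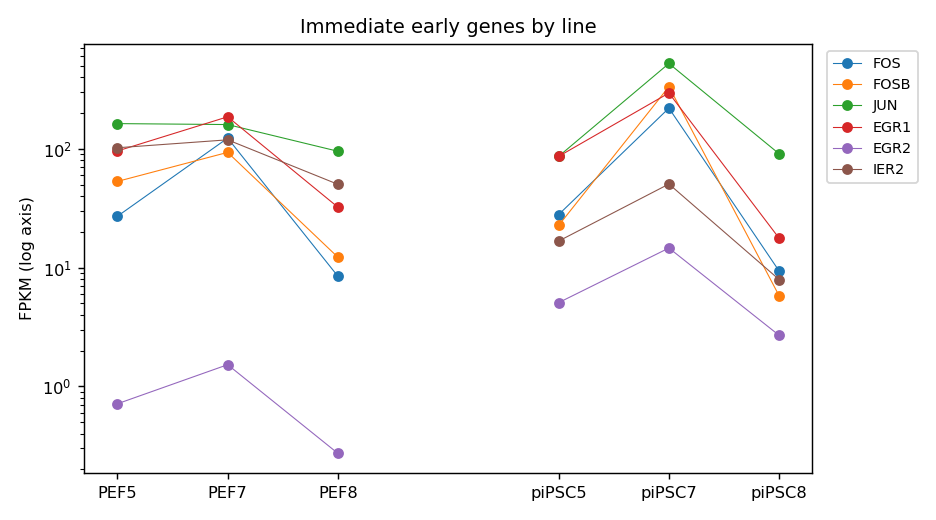
FPKM of FOS, FOSB, JUN, EGR1, EGR2 and IER2 on a log axis in each library, with thin lines that join the libraries of a group to guide the eye. All 6 genes are highest in piPSC7 among piPSCs, and all but JUN are highest in PEF7 among PEFs. The 6 genes are a selection. Of the 24 other immediate early and serum response genes tested, 8 were highest in line 7 in both groups, beside 11.6% of all tested genes. NR4A2, not shown, was at 2.76, 2.07 and 1.86 FPKM in piPSC5, piPSC7 and piPSC8.

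The profiles nearest to FOSL1 were those of MYCL at a distance of 0.15, GPAT3 at 0.16 and NFKB2 at 0.17. NFKB2, a subunit of NF-kB, was at 36.2, 25 and 33.7 FPKM in PEFs and at 5.63, 9.0 and 4.85 FPKM in piPSCs. Those nearest to JUND were PPP2R2C at 0.14, S100A13 at 0.16 and FMNL1 at 0.19. These distances describe 6 libraries that fall into 2 groups, and any gene with a fall of the same size lies near.

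Of the related bZIP partners, 17 were tested, of which 5 fell and 1 rose, with a median log2 change of -0.42, beside 16.7% called lower and 20.2% higher over all genes. Of the 17, 2 passed the minimum on mean FPKM in PEFs alone, MAF among them, and BATF passed it in piPSCs alone, so their differences follow in part from the filter. Without line 7, 3 fell. The list, like those that follow, was chosen with earlier results of these data known. NFE2L1 and NFE2L2, cap'n'collar factors that pair with small MAF proteins, both fell. NFE2L1 was at 141, 166 and 122 FPKM in PEFs and at 18.7, 27.7 and 18.8 FPKM in piPSCs, a log2 change of -2.67 (limma adjusted p = 0.000336). NFE2L2, the regulator of antioxidant genes, was at 122, 117 and 108 FPKM and then at 32.1, 40.4 and 28.7 FPKM, a log2 change of -1.76 (limma adjusted p = 0.00053). MAF, a large MAF protein, fell from 2.87, 11.9 and 9.46 FPKM to 0.200, 0.138 and 0.447 FPKM, a log2 change of -2.68 (limma adjusted p = 0.004).

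BATF, the closest relative of BATF3, lies 217 kb from FOS on chromosome 7. It had 0 fragments in each PEF library and 272, 701 and 9 in piPSC5, piPSC7 and piPSC8, or 19.7, 64.1 and 0.889 FPKM. With 3 fragments per PEF library as the floor, its mean was at least 143-fold higher in piPSCs, a bound that covers the counting error only. The bound was 51.9-fold without piPSC7 and 212-fold without piPSC8, as computed after the values were seen. The limma adjusted p was 0.035, and it ran from 0.0695 to 0.2 when PEF5, PEF7, PEF8, piPSC5 or piPSC7 or lines 5 or 7 were left out and was 0.00141 without piPSC8.

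Upstream of AP-1, 24 kinases of the MAP kinase cascade were tested. Of these, 2 rose and 2 fell, 8.33% in either direction beside 20.2% higher and 16.7% lower over all genes, with a median log2 change of 0.01. MAP3K8 and MAPK11 passed the minimum on mean FPKM in PEFs alone and MAPK13 in piPSCs alone, so these calls follow in part from the filter. MAP3K8, a kinase that activates the ERK and JNK branches, fell from 3.41, 15.2 and 5.03 FPKM to 0.137, 0.112 and 0.0939 FPKM, by 2.76 on the log2 scale (limma adjusted p = 0.00405). MAPK11, the beta form of p38, fell by 1.37 (limma adjusted p = 0.00522, but 0.0746 without line 5). MAP2K4, which activates JNK and p38, was at 13.4, 12.1 and 15.3 FPKM in PEFs and at 40.2, 31.3 and 19.2 FPKM in piPSCs, a log2 change of 1.04 (limma adjusted p = 0.0197). MAPK13, the delta form of p38, had a log2 change of 1.91 (limma adjusted p = 0.0489). Neither rise held throughout. MAP2K4 lost its call in 8 and MAPK13 in 12 of 18 alternatives, including both rescalings, under which 5 or 6 kinases were called lower. Without PEF5, PEF7 or piPSC7 neither was called.

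Of the 16 feedback regulators of these kinases tested, 6 fell and 0 rose, beside 16.7% and 20.2% over all genes, with a median log2 change of -0.33. DUSP10, among those that fell, passed the minimum on mean FPKM in PEFs alone, with means of 2.5 and 0.0706 FPKM. Its call follows in part from the filter. Without line 5, 3 of the feedback regulators fell. SPRED2, which passed the threshold on p but not 2-fold, had a log2 change of 0.96 (limma adjusted p = 0.00275). DUSP1, the immediate early phosphatase of JNK and p38, fell from 105, 104 and 79.9 FPKM to 6.27, 16.3 and 5.52 FPKM, by 3.36 on the log2 scale (limma adjusted p = 0.000928). SPRY4 fell by 2.48 (limma adjusted p = 0.00381), and DUSP5, a nuclear ERK phosphatase, by 1.65 (limma adjusted p = 0.0211). DUSP5 lost its call without PEF5, PEF7, piPSC5, piPSC8 or line 5, with an adjusted p of up to 0.177.

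Among the other immediate early and serum response genes, 24 were tested, 9 fell and 1 rose, beside 16.7% and 20.2% over all genes, with a median log2 change of -0.89. The count of those that fell was 4 without line 5 and 5 without piPSC5 or without piPSC8. IER3, a survival gene, fell from 587, 987 and 923 FPKM to 8.93, 23.0 and 9.02 FPKM, a log2 change of -5.93 (limma adjusted p = 0.000217). ELK3, a ternary complex factor that binds beside serum response factor, fell from 69.7, 93.8 and 50.4 FPKM to 6.79, 5.15 and 4.05 FPKM (log2 fold change -3.49, limma adjusted p = 0.000343). NR4A2, an orphan nuclear receptor, fell by 3.19 on the log2 scale (limma adjusted p = 0.00268). EGR2 rose from 0.712, 1.52 and 0.272 FPKM to 5.06, 14.6 and 2.68 FPKM (log2 fold change 1.99, limma adjusted p = 0.0228). Without PEF5, PEF8, piPSC5 or line 5 it was not called, with an adjusted p of up to 0.131.

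Textbook AP-1 targets fell almost throughout. Of 19 tested, 18 fell and 0 rose, beside 16.7% called lower over all genes, and the median log2 fold change was -5.86. Of the 22 targets in the table, 3 were left out by the minimum on mean FPKM, and 2 of the 19 passed it in PEFs alone. All 10 fibroblast markers fell over the same contrast, and the targets include genes that fibroblasts express strongly, such as VIM and TIMP1. Whether the targets fell with the 4 lower AP-1 members or with the fibroblast program cannot be told apart. The summed level of the 9 members was 603, 929 and 644 FPKM in PEF5, PEF7 and PEF8. In piPSC5, piPSC7 and piPSC8 it was 252, 1290 and 232 FPKM, so it was higher in the piPSCs of line 7 alone. CXCL8, a chemokine, was at 1560, 1630 and 3290 FPKM in PEFs and at 1.20, 0.226 and 0.0610 FPKM in piPSCs, a log2 change of -10.48 (limma adjusted p = 7.71e-05). CCL2, another chemokine, was at 3470, 2480 and 1740 FPKM and then at 3.81, 0 and 8.96 FPKM, a log2 change of -9.41 (limma adjusted p = 0.000416). MMP3, a matrix protease, was at 300, 115 and 2340 FPKM and then at 6.22, 0.0285 and 0 FPKM, a log2 change of -7.80 (limma adjusted p = 0.00298). TGFB1 was the target that was not called, at 17.1, 21.2 and 12.1 FPKM in PEFs and 4.83, 15.1 and 5.58 FPKM in piPSCs.

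**Figure D5:**
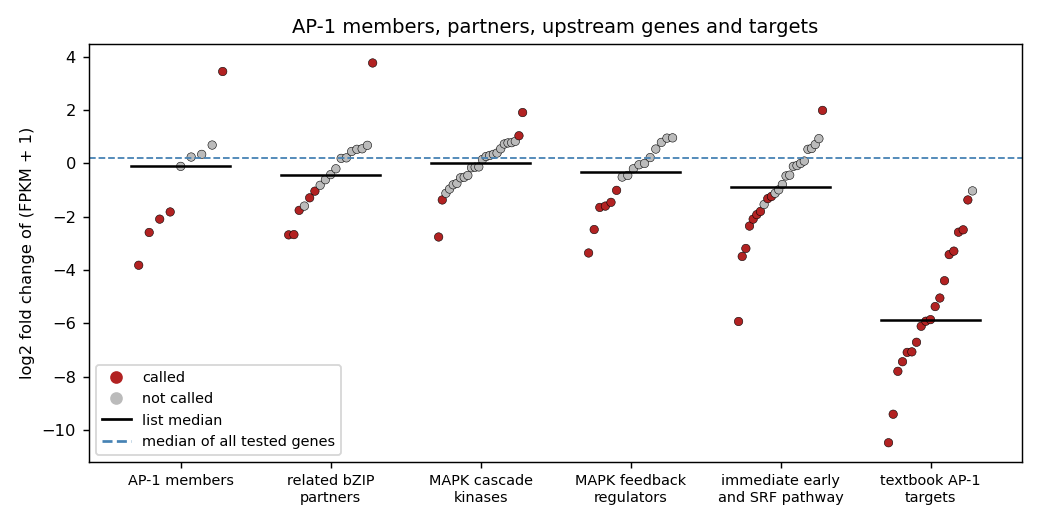
log2 fold change of (FPKM + 1) of every tested gene of 6 lists, with called genes in red, the list median as a black bar and the median over all tested genes, 0.20, as a dashed line. The median is -5.86 for the textbook targets and lies between -0.89 and 0.01 for the other lists.

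A TRE was found in the 250 bases before the RefSeq start of 4 of 24 textbook targets that could be read, against 5.27% of all windows. The genes are listed as AP-1 targets, so a higher share with the site could be foreseen and is not support. The sites of the 3 of these genes that were called lower are shown with 11 bases on either side, with the TRE in capitals, read in the direction of the gene.
MMP3, chr9:33454053-33454081, minus strand: gaaagcattcaTGAGTCAatttgtgggtg
PLAUR, chr6:50505510-50505538, minus strand: tacggccagcaTGAGTCAgagtagagcca
CXCL8, chr8:69932498-69932526, plus strand: gaggagtcagaTGACTCAggtctgctctc

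The sites began 75, 74 and 137 bases before the RefSeq starts of MMP3, PLAUR and CXCL8. The site of MMP3 lies inside its row, which reaches 33454194. PLAUR, the urokinase receptor, was at 88.5, 106 and 138 FPKM in PEFs and at 1.84, 0.219 and 0.158 FPKM in piPSCs, a log2 change of -6.11 (limma adjusted p = 0.000196). PLAUR was named for its site, after its values were known. The fourth gene with a TRE, MMP9, had a mean under 0.5 FPKM and was not tested. The remaining targets fell without a TRE in this window, which says only that these letters are not in these 250 bases.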

How the data were processed

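PolyA-selected RNA of 3 PEF and 3 piPSC lines was sequenced from both ends over 150 bp with a kit that does not mark strand. The authors deposited FPKM values per gene. The submitters' processing notes name HISAT2 2.1.0, HTSeq 0.6.0, Bowtie2 2.2.3 and Sscrofa11.1, without roles, and how reads shared between overlapping genes were counted is not given in the sources used here. FPKM values were whole multiples of 1 fragment, to a tolerance of 0.001 fragments, for 18007 of 18007 genes. Totals were 11010629 to 17836510 fragments per library, and intervals and floors from them cover the counting error only.

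Groups and lines were taken from the labels. limma 3.58.1 in R 4.3.3 (lmFit, eBayes with trend) was fitted on log2(FPKM + 1) to the 12428 genes whose mean reached 0.5 FPKM, two-sided and adjusted by Benjamini-Hochberg over all of them. The fit was unpaired, after the test that the paper's general statistics section names, although the study set each piPSC line against its own PEF line when it compared genes. Fold changes on this scale understate those of low genes. A call needed an adjusted p under 0.05 and a 2-fold change. Exact permutation of 3 against 3 has 0.1 as its smallest p and was not used. Family shares and ratios per line have no test. Tested on data simulated for this comparison with 12461 genes, the fit called 66 of 66 genes changed 8-fold, 62 of 62 changed 4-fold and 20 of 72 changed 2-fold, and 16 others. The simulation gave every gene the same spread between libraries and no effect of the line. That spread was smaller than that of FOS, FOSB and JUN, whose standard errors were 1.32, 1.45 and 0.7. The counts therefore do not tell how often a change of these members would be called.

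Same-numbered libraries come from the same animal, which pairs them. Deviations from group means correlated at 0.0921, 0.0946 and 0.08 within lines 5, 7 and 8 and at -0.121 to 0.0553 between lines.

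The members and lists were chosen with earlier results of these data known. The named genes are the members, up to 3 called genes with the largest rise and 3 with the largest fall in each of 5 lists, and the 3 profiles nearest to FOS, FOSL1 and JUND. Motifs were searched on both strands. Alternatives were a pseudocount of 0.1, a minimum mean of 1 FPKM or none, a replicate block, quantile normalization, both rescalings, no trend, voom on recovered fragments, and leaving out each library or line. Marker lists of chondrocytes, keratinocytes, endothelial cells and macrophages or leukocytes summed to at most 4.54, 9.09, 2.59 and 3.03 FPKM in a library.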

Additional observations from a re-analysis of the deposited data

Results flagged for a closer look

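FOSB and JUN moved in opposite directions between the lines. The log2 ratio of piPSC to PEF on FPKM + 1 was -1.2 in line 5, 1.83 in line 7 and -0.97 in line 8 for FOSB, and -0.91 in line 5, 1.71 in line 7 and -0.07 in line 8 for JUN. Each ratio sets 1 library against 1, so the difference between the lines was not tested.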

How the results depend on the processing

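The called members kept their direction under every alternative. Over the settings that kept all libraries, the adjusted p ran from 0.00141 to 0.013 for FOSL1, 0.00331 to 0.0109 for FOSL2, 0.0026 to 0.0113 for JUND, 0.003 to 0.0089 for MAFF and 0.00017 to 0.00267 for BATF3. With a library or line left out, the lower members called were 3 to 4 and the higher 1 to 1, and MAFF without line 5 was the call lost. The replicate block changed no call of a member, and gave 1 kinase called higher in place of 2, with 2462 genes called higher and 2023 lower. FOSB and JUN had no stable direction, and FOS changed sign only with a single library left out. With one library or line left out, FOS ran from -0.89 to 1.32, FOSB from -1.69 to 1.13 and JUN from -0.61 to 0.82. FOS was at -0.55 without PEF8 and -0.89 without piPSC7, each of which left a line without its partner library. Without line 5, 7 or 8, FOS was at 0.48, 0.09 and 0.44. Its log2 ratios within lines 5, 7 and 8 were 0.05, 0.83 and 0.13. FOSB was at 0.09 without PEF5, 0.49 without PEF7, 0.23 without piPSC5, 1.13 without piPSC8, 0.43 without line 5 and 0.32 without line 8. JUN was at -0.03 and -0.08 under the rescalings to the median ratio and equal sums, -0.01 without PEF8, -0.61 without piPSC7 and -0.49 without line 7. Genes called lower numbered 1307 to 2075 with a library or line left out, lowest without line 5. Related bZIP partners called higher were 0 without the filter and 0 to 2 with a library or line left out, and those called lower 3 to 6. Kinases called higher were 1 without the filter, 0 under both rescalings and 0 to 3 with one left out, and lower ones were 5 and 6 under the rescalings and 1 to 4 with one left out. Feedback regulators called higher were 1 at a pseudocount of 0.1, 2 with voom and 0 to 2 with one left out, and lower 3 to 6. Immediate early genes called higher were 2 at a pseudocount of 0.1, 2 with voom and 0 to 2 with one left out, and lower 4 to 11. Members at least 4-fold changed were 1 higher and 3 lower in line 5 and 1 higher and 1 lower in line 7, and under both rescalings 1 was at least 2-fold higher in line 5. The cause of these changes was not tested. Per fragment rather than per length, the shares of FOSL1 with FOSL2 and of JUND were still higher in PEFs on average, and only 3 lines of each kind limit the precision of all of these values.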
